A study of Homo sapiens with 16 samples.

Results

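The 10 genes described here are CD44, SLC12A2, PTPRO, TSPAN5, KIAA1549, CAB39L, VSNL1, TCFL5, RUNX2 and ETS2, reported Wnt targets of colon cancer that are neither feedback inhibitors of the pathway nor stem cell markers. They were taken by symbol, and all 10 were present among the 26485 gene symbols of the count files. Polyadenylated RNA had been sequenced from SW620 dnLEF1, SW620 GFP, SW480 dnLEF1 and SW480 GFP cells, with 4 libraries in each of the 4 groups and all cells at passage 6. SW480 and SW620 are established colon cancer cell lines, SW480 from a primary tumour and SW620 from a lymph node metastasis of the same patient, and both carry a truncated APC. GFP is the mock control, labelled as high in Wnt activity, and dnLEF1 is a LEF1 without the part that binds beta-catenin, labelled as low in Wnt activity. The sources used here name neither the promoter of the constructs nor whether the cells were clones or pools.

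In Wnt signalling, beta-catenin that escapes destruction enters the nucleus and binds TCF and LEF factors, which sit on the DNA of target genes and activate them with it. Loss of APC function leaves the pathway on in most colon cancers. A LEF1 that cannot bind beta-catenin competes for the same DNA and lowers the output of direct targets.

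In SW620, 4 of the 9 members tested rose with dnLEF1 (SLC12A2, ETS2, KIAA1549 and TSPAN5), none fell, and all 9 fold changes were positive. Of the 13336 genes tested in SW620, 8.46% passed, 6.03% higher and 2.43% lower. In SW480, 6 of the 9 fell (VSNL1, CAB39L, TSPAN5, RUNX2, SLC12A2 and KIAA1549), none rose, and 7 of the 9 fold changes were negative. Of the 14426 genes tested in SW480, 48.5% passed, 24.2% higher and 24.4% lower. The effect of dnLEF1 was more positive in SW620 than in SW480 for 8 of the 9, TCFL5 being the exception, where 16.2% of all genes tested passed in that direction (edgeR interaction test, adjusted p below 0.05). With all 9 edgeR fold changes positive in SW620, no threshold could give a member lower there. Of these, CAB39L (log2 0.0023 ± 0.06 SE) and VSNL1 (log2 0.01 ± 0.06 SE) were near 0. Their signs turned in 5 and 2 of 14 alternatives. At an unadjusted p below 0.05 edgeR gave 0 members higher in SW480. The positive fold changes in SW480 were near 0 (log2 0.02 ± 0.08 SE for TCFL5 and 0.03 ± 0.08 SE for ETS2), so that count adds little. DESeq2 and limma voom also gave 0 members lower in SW620 and 0 higher in SW480 at an adjusted p below 0.05. PTPRO was too low to pass the filter on low counts in any comparison. Among these 9 members the calls were thus only falls in SW480 and only rises in SW620. The members were chosen with earlier results of these data known, so these counts do not speak for Wnt targets at large. In a list of 48 other Wnt target genes, 6 rose and 5 fell of 43 tested in SW620. In SW480, 11 rose and 24 fell of 42 tested. In bulk RNA, fewer cells that express a gene and less of its RNA per cell cannot be told apart.

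Sequences upstream of the 3 members that fell most in SW480 are shown because TCF and LEF factors bind short DNA elements, often near promoters. RefSeq promoter windows (GRCh38.p14, 250 bases before to 50 after a start) were found for all 10 members, 14 windows in all. The letters CTTTG, the core shared by TCF and LEF sites, are in capitals on either strand (CAAAG on the other).
VSNL1, chr2:17539722-17540021, plus strand: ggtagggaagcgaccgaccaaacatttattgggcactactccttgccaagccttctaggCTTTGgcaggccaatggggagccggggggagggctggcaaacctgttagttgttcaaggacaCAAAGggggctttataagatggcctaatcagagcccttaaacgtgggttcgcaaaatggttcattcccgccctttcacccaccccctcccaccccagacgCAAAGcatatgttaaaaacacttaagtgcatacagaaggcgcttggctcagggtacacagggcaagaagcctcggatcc
VSNL1, chr2:17540446-17540745, plus strand: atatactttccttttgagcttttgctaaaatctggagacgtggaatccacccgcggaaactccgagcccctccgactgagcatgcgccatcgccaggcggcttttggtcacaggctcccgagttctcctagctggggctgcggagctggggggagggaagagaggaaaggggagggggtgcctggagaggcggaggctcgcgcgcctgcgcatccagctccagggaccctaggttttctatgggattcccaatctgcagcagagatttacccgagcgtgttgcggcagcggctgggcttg
CAB39L, chr13:49401493-49401792, minus strand: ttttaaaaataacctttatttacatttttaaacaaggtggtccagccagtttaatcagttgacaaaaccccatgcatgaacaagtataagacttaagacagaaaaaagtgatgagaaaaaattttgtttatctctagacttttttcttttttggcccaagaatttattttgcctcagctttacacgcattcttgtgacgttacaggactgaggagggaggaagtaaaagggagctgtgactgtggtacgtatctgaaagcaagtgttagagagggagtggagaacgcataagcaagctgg
TSPAN5, chr4:98658562-98658861, minus strand: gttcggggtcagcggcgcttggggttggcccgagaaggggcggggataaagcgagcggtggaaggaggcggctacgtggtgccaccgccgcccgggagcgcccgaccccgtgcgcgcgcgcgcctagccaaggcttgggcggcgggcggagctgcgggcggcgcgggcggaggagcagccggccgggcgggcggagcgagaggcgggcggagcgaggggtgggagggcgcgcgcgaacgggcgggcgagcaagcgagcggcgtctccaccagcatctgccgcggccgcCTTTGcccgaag
The first VSNL1 window held 3 copies of the core and TSPAN5 1, and the second VSNL1 window and the CAB39L window held none. Both VSNL1 windows and the CAB39L window lie downstream of the outermost start that GENCODE gives the gene. Neither of the longer letter runs searched on both strands, CTTTGAT and CTTTGTT, was found in any of the 14 member windows, against 2.62% and 5.20% of all 35116 windows. The bare core, which was added to the search after these had been seen and which both longer runs contain, was in 5 of the 14 member windows and in 47.5% of all windows. These counts describe only the letters of these windows around annotated starts.

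The libraries held between 17181204 and 26153506 gene counts. Reads aligned to more than 1 place took a share of 39.4% in SW620 GFP replicate 3 and of 7.61% to 9.46% in each of the remaining 15 libraries. Without that replicate 4 members still rose and none fell in SW620, and 8 still passed the interaction test. LEF1 itself was at 20.1 to 25.6 CPM in SW620 dnLEF1 and 2.82 to 3.92 CPM in SW620 GFP libraries, and at 173 to 273 CPM in SW480 dnLEF1 and 48.8 to 52.9 CPM in SW480 GFP libraries. SW480 dnLEF1 replicate 4 was the lowest of its group, and without it 6 members still fell in SW480. CPM are reads of a gene scaled to a common library total, set over all 16 libraries unless another scale is named. The counts cannot separate reads of the construct from those of the cells' own LEF1.

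Of 10 colon epithelial markers, 7 reached a mean of 1 CPM in both SW620 groups, 6 in SW480 dnLEF1 and 8 in SW480 GFP. KRT20 and LGALS4 were below 1 CPM in every group, and CDH17 had no count in SW480 dnLEF1. Their summed level was 8533 to 10835 CPM in SW620 dnLEF1 and 9935 to 12249 CPM in SW620 GFP libraries, and 7090 to 8512 CPM in SW480 dnLEF1 and 10727 to 12492 CPM in SW480 GFP libraries. Several marker lists moved with the construct, the neuroendocrine one in opposite directions in the 2 lines. The 4 neuroendocrine markers summed to 39.7 to 49.4 CPM in SW620 dnLEF1 and 16.8 to 19.9 CPM in SW620 GFP libraries, with CHGA at 0 in SW620 dnLEF1, and to 29.6 to 33.1 CPM in SW480 dnLEF1 and 56.8 to 71.0 CPM in SW480 GFP libraries, with INSM1 at 0 in SW480 dnLEF1. The 6 leukocyte markers summed to 6.21 to 7.18 CPM in SW620 dnLEF1 and 4.74 to 5.94 CPM in SW620 GFP libraries, and to 8.85 to 11.8 CPM in SW480 dnLEF1 and 5.02 to 6.66 CPM in SW480 GFP libraries. Of these, PTPRC and CD3E had no count in any group but SW480 GFP, where they were below 1 CPM. The 5 endothelial markers summed to 1.10 to 1.97 CPM in SW620 dnLEF1 and 1.03 to 1.33 CPM in SW620 GFP libraries. In SW480 they summed to 2.27 to 3.87 CPM in dnLEF1 and 0.553 to 1.37 CPM in GFP libraries. Only VWF among them reached a mean of 1 CPM, in the dnLEF1 group of each line. The 7 fibroblast markers summed to 29.2 to 32.6 CPM in SW620 dnLEF1 and 22.2 to 34.0 CPM in SW620 GFP libraries, and to 14.9 to 37.9 CPM in SW480 dnLEF1 and 8.73 to 17.5 CPM in SW480 GFP libraries. Of these 7, 2 reached a mean of 1 CPM in SW620 dnLEF1 and 3 in SW620 GFP. In SW480 only COL1A1 reached it in dnLEF1, where DCN and LUM had no count, against 3 markers in GFP. The part of these shifts in the results was not tested.

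**Figure D1:**
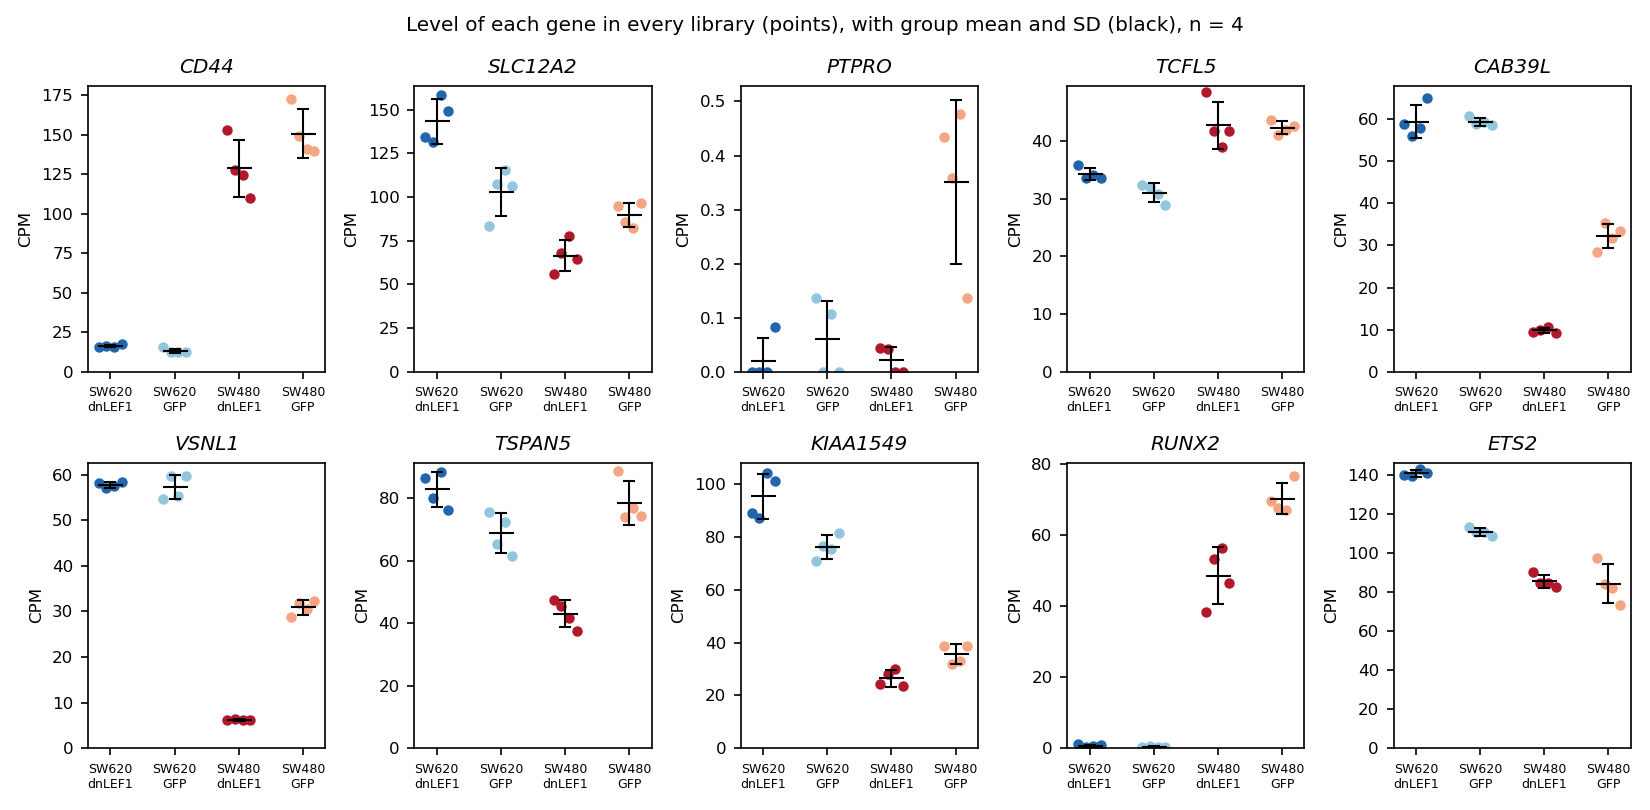
CPM of each of the 10 genes in every library (points), with the mean and SD of the 4 libraries of a group in black and each vertical axis starting at 0. VSNL1 and CAB39L are lowest in SW480 dnLEF1, CD44 and RUNX2 are near the bottom of their axes in both SW620 groups, and PTPRO stays below 0.5 CPM throughout.

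Of 5 members that encode membrane proteins, TSPAN5, SLC12A2 and KIAA1549 passed the test in both lines, higher in SW620 and lower in SW480. Of the 12904 genes tested in both lines, 1.49% passed in that way, and 1.88% passed with opposite signs either way round. The median log2 fold change of the 9 members was 0.31 in SW620, against -0.0044 over all genes, and -0.43 in SW480, against -0.0013 over all genes.

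TSPAN5 encodes a tetraspanin that helps the protease ADAM10 leave the endoplasmic reticulum. The gene lies on chromosome 4 at 98470367 to 98658611 (hg38, minus strand). TSPAN5 in SW620 was at 86.6, 80.3, 88.4 and 76.3 CPM in dnLEF1 libraries, against 75.6, 65.6, 72.6 and 61.6 CPM in GFP libraries. The SW620 groups did not overlap but lay close, and the rise was 1.20-fold (log2 0.27 ± 0.07 SE, edgeR adjusted p = 0.0347). That call was lost in 6 of 14 alternatives, namely in a single fit of all 16 libraries and on leaving out dnLEF1 replicate 1, 2 or 3 or GFP replicate 2 or 4, with edgeR adjusted p up to 0.123. In SW480, TSPAN5 was at 47.5, 45.7, 41.7 and 37.6 CPM in dnLEF1 libraries, against 88.9, 74.2, 77.1 and 74.3 CPM in GFP libraries. Every SW480 dnLEF1 library was below every GFP library, a 1.82-fold fall (log2 -0.86 ± 0.09, edgeR adjusted p = 1.51e-06).

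SLC12A2 encodes the sodium-potassium-chloride cotransporter NKCC1 of the basolateral membrane. It lies on chromosome 5 at 128083766 to 128189677 (plus strand). SLC12A2 in SW620 was at 134, 131, 158 and 149 CPM in dnLEF1 libraries, against 83.5, 108, 115 and 107 CPM in GFP libraries. All 4 SW620 dnLEF1 libraries were higher than any GFP library, a 1.39-fold rise (log2 0.47 ± 0.09, edgeR adjusted p = 0.00444). In SW480, SLC12A2 was at 55.7, 67.9, 77.6 and 64.6 CPM in dnLEF1 libraries, against 94.8, 85.6, 82.2 and 96.8 CPM in GFP libraries. The SW480 groups again did not overlap, and the gene fell 1.35-fold (log2 -0.43 ± 0.09, edgeR adjusted p = 0.00139).

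KIAA1549 encodes a membrane protein known as the partner of BRAF in a fusion found in pilocytic astrocytoma. It lies on chromosome 7 at 138831381 to 138981389 (minus strand). KIAA1549 in SW620 was at 89.3, 87.2, 104 and 101 CPM in dnLEF1 libraries, against 70.7, 76.6, 75.6 and 81.6 CPM in GFP libraries. The rise was 1.26-fold with no overlap (log2 0.33 ± 0.07, edgeR adjusted p = 0.00954). In SW480, KIAA1549 was at 24.2, 28.3, 29.9 and 23.5 CPM in dnLEF1 libraries, against 38.7, 32.1, 33.1 and 38.9 CPM in GFP libraries. The SW480 groups did not overlap and lay below both SW620 groups, and the fall was 1.35-fold (log2 -0.43 ± 0.10, edgeR adjusted p = 0.00195).

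CD44 encodes the receptor for hyaluronan, whose splice variants are widely studied in colon tumours and which these counts per gene cannot tell apart. It lies on chromosome 11 at 35138882 to 35232402 (plus strand). CD44 in SW620 was at 15.5, 16.4, 15.97 and 17.6 CPM in dnLEF1 libraries, against 15.4, 12.4, 12.3 and 12.5 CPM in GFP libraries. The groups met at GFP replicate 1 without overlapping, and the difference just missed the threshold (log2 0.31 ± 0.09, edgeR adjusted p = 0.0505). It passed without GFP replicate 1 (log2 0.40, edgeR adjusted p = 0.00825), and under DESeq2, limma voom and the replicate block. In the other 10 of the 14 alternatives it did not pass, with edgeR adjusted p up to 0.165. In SW480, CD44 was at 153, 128, 125 and 110 CPM in dnLEF1 libraries, against 173, 149, 141 and 140 CPM in GFP libraries. The SW480 groups overlapped through dnLEF1 replicate 1 (log2 -0.22 ± 0.10, edgeR adjusted p = 0.0706), and the gene passed as lower without that library (log2 -0.32, edgeR adjusted p = 0.00733), in the fit of all 16 libraries and with the replicate block, with adjusted p up to 0.209 over the 14 alternatives. Its level differed far more between the lines than between the constructs.

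PTPRO encodes a receptor-type tyrosine phosphatase and lies on chromosome 12 at 15322257 to 15602175 (plus strand). It had 0, 0, 0 and 2 reads in SW620 dnLEF1 libraries and 3, 0, 2 and 0 in SW620 GFP libraries, too few to show a difference. In SW480 it had 1, 1, 0 and 0 reads in dnLEF1 libraries and 11, 8, 10 and 3 in GFP libraries. The summed level in SW480 dnLEF1 was lower by a ratio of 16.2, with a 95% exact interval of 4.14 to 140 for counting error only. With no filter on low counts the SW480 fall passed (log2 -3.71 ± 0.80, edgeR adjusted p = 0.000589 over 20256 genes) and the SW620 difference did not (edgeR adjusted p = 0.679), nor did the interaction (edgeR adjusted p = 0.417).

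The 2 cytosolic members gave the largest falls of the 9 in SW480 and no detectable difference in SW620. VSNL1 encodes visinin-like protein, a calcium sensor best known from neurons, and lies on chromosome 2 at 17539126 to 17657018 (plus strand). VSNL1 in SW620 was at 58.2, 57.0, 57.6 and 58.4 CPM in dnLEF1 libraries, against 54.7, 59.6, 55.4 and 59.6 CPM in GFP libraries. The dnLEF1 values lay inside the range of the GFP values (log2 0.01 ± 0.06, edgeR adjusted p = 0.945). In SW480, VSNL1 was at 6.12, 6.43, 6.14 and 6.25 CPM in dnLEF1 libraries, against 28.7, 31.9, 30.5 and 32.3 CPM in GFP libraries. The SW480 groups were far apart and each was tight, a 4.93-fold fall (log2 -2.30 ± 0.08, edgeR adjusted p = 3.61e-11). Of all genes tested in SW480, 2.02% had a lower fold change.

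CAB39L encodes MO25-beta, a scaffold that activates the kinase LKB1, and lies on chromosome 13 at 49308650 to 49444064 (minus strand). CAB39L in SW620 was at 58.8, 55.9, 57.8 and 65.1 CPM in dnLEF1 libraries, against 60.7, 58.8, 59.2 and 58.6 CPM in GFP libraries. The SW620 groups overlapped (log2 0.0023 ± 0.06, edgeR adjusted p = 0.989). In SW480, CAB39L was at 9.49, 10.03, 10.7 and 9.26 CPM in dnLEF1 libraries, against 28.6, 35.3, 31.8 and 33.3 CPM in GFP libraries. All SW480 dnLEF1 libraries were low, a 3.26-fold fall (log2 -1.70 ± 0.09, edgeR adjusted p = 1.68e-09), and 3.02% of all genes tested had a lower fold change. The log2 CPM of VSNL1 and CAB39L had a Pearson r of 0.996 over the 16 libraries, which fall into 4 groups.

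The 3 transcription factor genes differed in their calls: RUNX2 passed only in SW480, ETS2 only in SW620 and TCFL5 in neither line. They were not tested against each other. RUNX2, the Runt factor best known for driving osteoblasts, lies on chromosome 6 at 45328157 to 45664349 (plus strand). It was near the limit of detection in SW620, at 1.09, 0.430, 0.590 and 0.912 CPM in dnLEF1 libraries, against 0.272, 0.553, 0.479 and 0.313 CPM in GFP libraries, or 66 and 34 reads in all. These groups overlapped and the difference did not pass (log2 0.92 ± 0.37, edgeR adjusted p = 0.168). In SW480, RUNX2 was at 38.2, 53.2, 56.3 and 46.4 CPM in dnLEF1 libraries, against 69.5, 67.5, 67.1 and 76.5 CPM in GFP libraries. The SW480 groups did not overlap, with dnLEF1 replicate 1 lowest, and the gene fell 1.44-fold (log2 -0.53 ± 0.10, edgeR adjusted p = 0.000604).

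ETS2, a member of the ETS family that acts downstream of RAS and ERK signalling, lies on chromosome 21 at 38805183 to 38824955 (plus strand). ETS2 in SW620 was at 140, 139, 143 and 141 CPM in dnLEF1 libraries, against 113, 111, 111 and 109 CPM in GFP libraries. Both SW620 groups were narrow and apart, a 1.27-fold rise (log2 0.34 ± 0.05, edgeR adjusted p = 0.000332). In SW480, ETS2 was at 90.2, 84.6, 84.8 and 82.5 CPM in dnLEF1 libraries, against 97.3, 84.0, 81.9 and 73.3 CPM in GFP libraries. The dnLEF1 values lay within those of GFP (log2 0.03 ± 0.08, edgeR adjusted p = 0.814).

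TCFL5, a basic helix-loop-helix factor best known from the testis, lies on chromosome 20 at 62841005 to 62861822 (minus strand). TCFL5 in SW620 was at 35.9, 33.5, 34.1 and 33.6 CPM in dnLEF1 libraries, against 32.5, 32.1, 30.8 and 28.9 CPM in GFP libraries. The SW620 groups did not overlap, yet the difference was small and did not pass (log2 0.14 ± 0.06, edgeR adjusted p = 0.234). In SW480, TCFL5 was at 48.6, 41.8, 39.1 and 41.7 CPM in dnLEF1 libraries, against 43.7, 41.0, 42.0 and 42.7 CPM in GFP libraries. These overlapped (log2 0.02 ± 0.08, edgeR adjusted p = 0.869). TCFL5 shares 4.30% of its annotated exon bases with COL9A3 and 6.91% with the pseudogene DPH3P1, both on the opposite strand, and the strand setting of the counting is not known. For CD44, KIAA1549 and ETS2 each such overlap was at most 2.25% of the exon bases.

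Whether dnLEF1 acted differently in SW620 and in SW480 was tested over all 16 libraries, where 28.5% of the 14926 genes tested passed (12.3% with the more positive effect in SW480). All 8 members that passed had the more positive effect in SW620. The difference was largest for VSNL1 (log2 2.32 ± 0.09, edgeR adjusted p = 5.64e-14) and CAB39L (log2 1.71 ± 0.10, edgeR adjusted p = 6.26e-11), both with a log2 fold change near 0 in SW620. RUNX2 followed at 1.46 ± 0.37, with its SW620 value resting on few reads, then TSPAN5 at 1.13 ± 0.12, SLC12A2 at 0.91 ± 0.14 and KIAA1549 at 0.76 ± 0.12, all on the log2 scale. The difference was 0.54 ± 0.14 for CD44 (edgeR adjusted p = 0.00608), although it passed in neither line alone, and 0.32 ± 0.09 for ETS2 (edgeR adjusted p = 0.0129). For TCFL5 it was 0.13 ± 0.10 (edgeR adjusted p = 0.339). These 8 calls held in each of the 21 alternatives tried. Mean LEF1 was 23.3 CPM in SW620 dnLEF1 and 246 CPM in SW480 dnLEF1 libraries, so cell line and LEF1 level differ together in this test. The part of the LEF1 level in the difference was not tested.

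**Figure D2:**
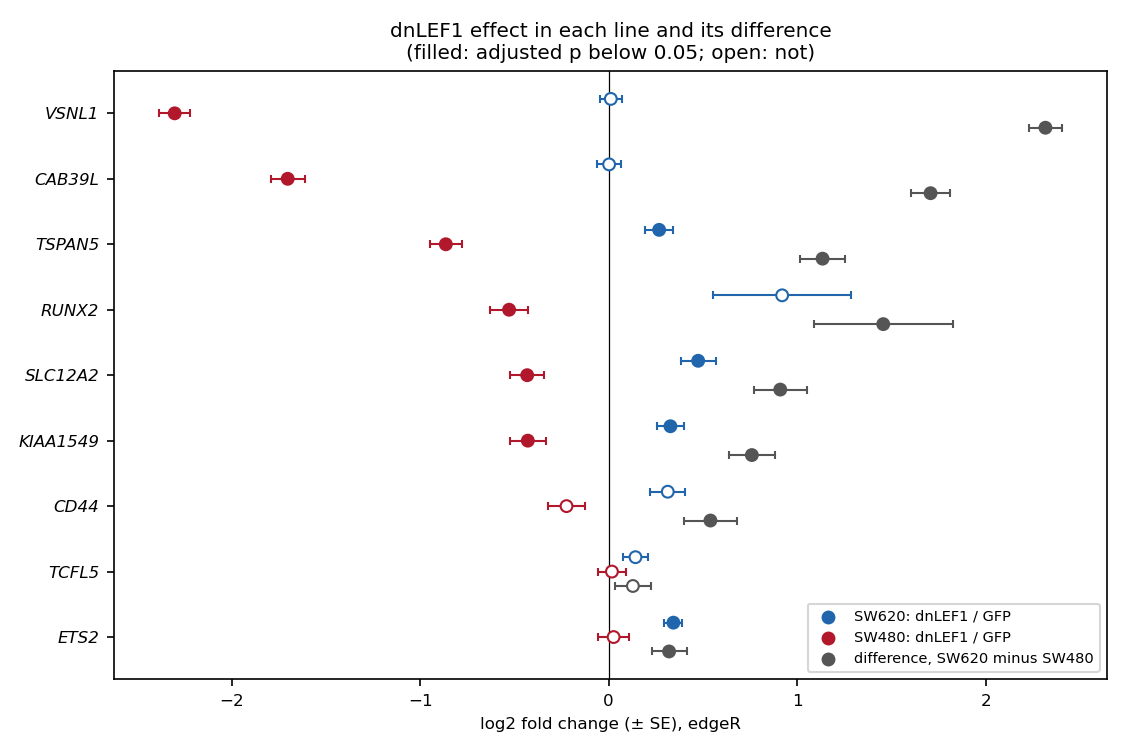
Log2 fold change of dnLEF1 over GFP (± SE, edgeR) for the 9 members tested, in SW620 (blue) and SW480 (red), with the difference between the lines in grey. Filled points passed at an adjusted p below 0.05 and open points did not. The grey points are filled and right of 0 for every gene but TCFL5.

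Among the GFP libraries the members differed between the lines as well. Between SW620 GFP and SW480 GFP, 4 members were higher and 4 lower in SW620, where 78% of the 14350 genes tested passed (37.7% higher and 40.3% lower), so that count is close to the background. CD44 was at 13.1 ± 1.48 CPM in SW620 GFP and 151 ± 15.4 CPM in SW480 GFP (SD, n = 4 each, scaled over these 8 libraries), 11.5-fold lower (edgeR adjusted p = 1.71e-13). RUNX2 was at 0.403 ± 0.134 CPM in SW620 GFP and 70.1 ± 4.43 CPM in SW480 GFP, 173-fold lower (edgeR adjusted p = 2.99e-15). TCFL5 was 1.37-fold lower and TSPAN5 1.15-fold lower. The TSPAN5 call was lost without SW620 GFP replicate 2 or 4 or SW480 GFP replicate 1, with edgeR adjusted p up to 0.111. KIAA1549 was 2.12-fold, VSNL1 1.85-fold, CAB39L 1.83-fold and ETS2 1.31-fold higher in SW620 GFP. SLC12A2 did not pass (log2 0.19 ± 0.09, edgeR adjusted p = 0.0628), but did without SW620 GFP replicate 1 (edgeR adjusted p = 0.000867), without SW480 GFP replicate 1 or 4, or with no filter. This comparison and the dnLEF1 comparisons share the GFP libraries.

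With dnLEF1 the distance between the lines was greater for VSNL1 and CAB39L. The mean CPM of VSNL1 in SW620 was 9.26 times that in SW480 among dnLEF1 libraries, and 1.86 times among GFP libraries. For CAB39L the ratios were 6.02 among dnLEF1 and 1.84 among GFP libraries, and for KIAA1549 3.61 and 2.13. CD44 was 7.88 times higher in SW480 than in SW620 among dnLEF1 libraries and 11.5 times among GFP libraries. The tests of these changes are the interaction values above.

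Ordered by mean CPM over the 4 groups, VSNL1, CAB39L, SLC12A2 and KIAA1549 were lowest in SW480 dnLEF1, followed by SW480 GFP, SW620 GFP and SW620 dnLEF1. Neighbours in that order overlapped for VSNL1 and CAB39L between the SW620 groups and for SLC12A2 between the GFP groups, and nowhere for KIAA1549. TSPAN5 was also lowest in SW480 dnLEF1, and its other 3 groups overlapped from one to the next. CD44 and RUNX2 had the order, from low to high, SW620 GFP, SW620 dnLEF1, SW480 dnLEF1 and SW480 GFP. ETS2 and TCFL5 did not differ beyond their spread between the SW480 groups. Per kilobase of annotated exon, ETS2 was the highest member in every group, with 28.3 CPM per kb in SW620 dnLEF1, 22.3 in SW620 GFP, 17.2 in SW480 dnLEF1 and 16.9 in SW480 GFP, and PTPRO the lowest. VSNL1 was second per kilobase in both SW620 groups, at 15.2 and 15.1 CPM per kb, ninth in SW480 dnLEF1 at 1.65 and seventh in SW480 GFP at 8.14.

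Each member was also set beside the 10 tested genes on either side. In SW480, SLC12A2 at a log2 fold change of -0.43 sat at the median of its 20 neighbours on chromosome 5, -0.44, 18 of which were negative. CD44 at -0.22 was likewise at the median of its neighbours on chromosome 11, -0.21. KIAA1549 was at -0.43 beside a median of -0.23, with 7 of 20 neighbours below it. For the 4 members with the largest falls, all 20 neighbours were above the member: VSNL1 (median 0.03), CAB39L (0.07), TSPAN5 (0.19) and RUNX2 (0.29). Genes picked for a large fall lie below most genes anywhere. Of all genes tested in SW480, 2.02%, 3.02%, 6.60% and 11.9% had a lower fold change than these members, in that order. In SW620 the neighbours of KIAA1549 were mostly higher too, 16 of 20 with a median of 0.19 beside its 0.33. SLC12A2 at 0.47 had a neighbour median of -0.07 in SW620 and was above 19 of its 20 neighbours, and ETS2 at 0.34 had one of 0.02 and was above 17. The part of the surrounding region in the members' values was not tested.

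**Figure D3:**
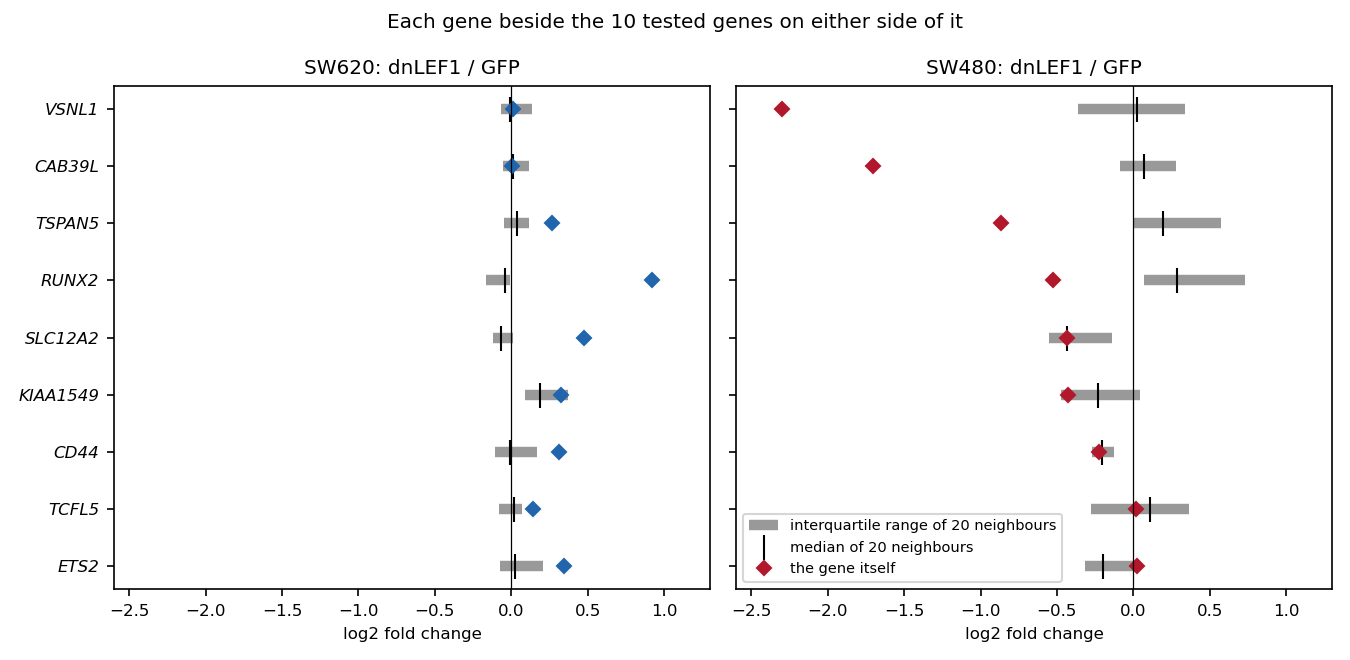
Log2 fold change of dnLEF1 over GFP for each member (diamond) in SW620 (left) and SW480 (right), beside the median (tick) and interquartile range (grey bar) of the 10 tested genes on either side. In SW480 the diamonds of VSNL1, CAB39L, TSPAN5 and RUNX2 lie left of their grey bars, while those of SLC12A2 and CD44 lie on their ticks.

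Of the wider pathway, a list of 48 other Wnt target genes was read from the same fits. In SW620, 6 of 43 tested rose, 5 fell and 32 did not pass, with a median log2 fold change of -0.04, beside 6.03% higher and 2.43% lower over all genes. In SW480, 11 of 42 tested rose, 24 fell and 7 did not pass, with a median of -0.26, beside 24.2% higher and 24.4% lower over all genes. The share of the list that rose in SW480 is thus near the background. The largest rises of the list in SW620 were the neuronal adhesion gene NRCAM (2.16-fold), the receptor kinase gene MET (1.43-fold) and TNFRSF19 (1.39-fold). Falls there included the endothelin gene EDN1 (1.76-fold, not called in 5 of 14 alternatives, which were the fit of all 16 libraries and leaving out dnLEF1 replicate 3 or 4 or GFP replicate 2 or 3, with edgeR adjusted p up to 0.0804) and NKD2 (1.29-fold). In SW480 the largest falls were the stem cell receptor gene LGR5 (11.5-fold), the Wnt hydrolase gene NOTUM (10.04-fold) and the homeobox gene PROX1 (9.45-fold). Its largest rises were the protease gene MMP7 (8.68-fold, on a log2 scale 3.12, and 4.39 without GFP replicate 1), MET (4.23-fold) and VEGFA (2.69-fold). Beside the -2.30 of VSNL1, the member that fell most in SW480, AXIN2 was at log2 -2.98 ± 0.07, NKD1 at -3.17 ± 0.11 and LGR5 at -3.53 ± 0.25 there. In SW620 these 3 genes, like VSNL1, did not pass (AXIN2 log2 -0.06 ± 0.05, NKD1 -0.06 ± 0.08, LGR5 0.09 ± 0.06).

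Among 11747 genes with a mean of at least 5 CPM in 1 group, the 3 whose log2 CPM followed each member most closely over the 16 libraries were named. The 16 libraries fall into 4 groups, which these correlations share. VSNL1 was closest to ABHD12B, LUM and DEPDC7 (Pearson r 0.996 to 0.997), and CAB39L to RIMBP2, BAIAP2L2 and SERINC5 (0.996 to 0.997). CD44 was closest to LPL, TENM3 and MCAM (0.995 to 0.996), and RUNX2 to PTPRG, PDP1 and GJA3 (0.996 to 0.997). SLC12A2 was closest to MGC27345, MIER3 and LHFPL2 (0.973 to 0.979), of which MIER3 and LHFPL2 also lie on chromosome 5. KIAA1549 was closest to CDK6, HLCS and HIPK2 (0.991 to 0.992), of which CDK6 and HIPK2 also lie on chromosome 7. TSPAN5 had the weakest matches, USP48, KIZ and SYK (0.939 to 0.943). For TCFL5 they were ORC5, ENO2 and PLOD3 (0.964 to 0.977), and for ETS2 ACTR3B, MRPS27 and IKBKB (0.968 to 0.977).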

How the data were processed

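The deposited files hold raw counts of reads per gene symbol, made by the authors. The submitters' processing notes name hg38 and Trimmomatic, TopHat2, HTSeq and DESeq2; the sources used here state no versions, annotation or strand setting. The 5 summary lines of each file, 20.0% to 50.5% of the total, were left out. Groups follow the labels, which do not say whether libraries of a group came from separate cultures, so p-values measure the spread between these libraries. No pair within a group differed as little as counting noise (chi-square per degree of freedom 1.99 to 22.2). Replicates 2 and 3 were much closer than any other pair in SW480 dnLEF1 (2.33, the rest 13.3 to 22.2) and in SW480 GFP (1.99, the rest 6.78 to 14.5). The 4 libraries of each SW480 group may thus not be equally independent, which was not tested.

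Each comparison was tested on all genes with edgeR 4.0.16 in R 4.3.3 (TMM, filterByExpr by group, quasi-likelihood test), on its own 8 libraries or, for the interaction, all 16. Benjamini-Hochberg adjusted p-values were called below 0.05. SE was taken as |log2 fold change| divided by the root of the F statistic. CPM used effective library sizes over all 16 libraries, except where means of 8 are named. Code was tested on simulated data. Alternatives were RLE size factors, no filter, DESeq2 1.42.0, limma 3.58.1 voom, 1 fit of all libraries, a replicate block and leaving out each library. Positions and exon lengths are from GENCODE 44, matched by symbol for 86.6% of the files' symbols. Beside the members, the genes named were LEF1, AXIN2, NKD1 and LGR5, the 3 largest called changes each way in each line from the list of other Wnt targets, and the 3 genes most alike each member. A gene that this rule names is not reported here. The members and lists were chosen with earlier results of these data known.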

Additional observations from a re-analysis of the deposited data

Results flagged for a closer look

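The dnLEF1 effect differed between SW620 and SW480 for 8 of the 9 members tested, by a test of the difference itself (edgeR interaction, adjusted p between 5.64e-14 and 0.0129). Of all 14926 genes tested, 28.5% passed, 16.2% with the more positive effect in SW620. On the log2 scale, SW620 minus SW480, the differences were 2.32 for VSNL1, 1.71 for CAB39L, 1.46 for RUNX2, 1.13 for TSPAN5, 0.91 for SLC12A2, 0.76 for KIAA1549, 0.54 for CD44 and 0.32 for ETS2. A library stood far from the other 3 of its group in 2 of 40 sets of 4 values. The limit used is passed by chance in about 1 in 20 sets of continuous values. That rate does not hold for sets of very few reads such as PTPRO, so the 2 sets cannot be weighed against it. CD44 was at 15.4 CPM in SW620 GFP replicate 1 and at 12.3 to 12.5 CPM in the other GFP libraries of SW620. PTPRO was at 0.0829 CPM in SW620 dnLEF1 replicate 4, from 2 reads, and at 0 in the other 3.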

How the results depend on the processing

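The interaction calls of the 9 members tested, 8 passed and TCFL5 not, were the same under all 21 alternatives. Between 3 and 5 members passed in SW620, all higher, and 6 or 7 in SW480, all lower. Without these alternatives, 6.03% of all genes tested passed as higher in SW620 and 24.4% as lower in SW480. In the comparison of GFP libraries 7 to 10 members passed, close to the background of 78% of all genes tested. These counts include PTPRO where no filter was used. Signs turned only for differences that did not pass. On the log2 scale, leaving out each library in turn gave CAB39L -0.047 to 0.030 and VSNL1 -0.013 to 0.031 in SW620, and TCFL5 -0.051 to 0.063 and ETS2 -0.033 to 0.10 in SW480. CAB39L in SW620 was also at -0.00349 with RLE size factors and at -0.00288 with DESeq2. The cause was not tested. In SW620, libraries numbered 1, 3 and 4 correlated across the groups at 0.56, 0.44 and 0.40 and those numbered 2 at -0.07, and 6 of 8 libraries matched their own number best, a hint of pairing in the data that the labels do not state. The range was -0.21 to 0.33 in SW480 and -0.16 to 0.26 between the GFP groups, where 2 and 3 of 8 matched best. Pairing was accepted only where every pair was above 0.1, which no comparison met. With the replicate block 1825 genes passed in SW620, against 1128 without it, and CD44 passed in both lines. PTPRO had at most 32 reads in a group and was tested only with no filter. RUNX2 in SW620 had 66 reads in dnLEF1 and 34 in GFP, a ratio of 1.92 (95% exact interval 1.25 to 2.99, counting error only), and did not pass (edgeR adjusted p = 0.168, and 0.108 to 0.37 over 14 alternatives).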
